A study of Mus musculus with 18 samples.

Results

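The comparison is between the ileum, the last segment of the small intestine, of C57BL/6 mice aged 32 days and that of mice aged 24 days. It uses 6 of the 18 arrays of the series, 3 for each age, chosen by the age in the array titles. C57BL/6 is an inbred laboratory strain; the labels name no mutation, treatment or diet, and both ages share everything else they state. The remaining 12 arrays hold mice aged 4, 7, 9 and 11 days, 3 per age. Each array holds RNA from full-thickness ileum of an individual mouse, so epithelium, muscle, vessels, nerves and immune cells all contributed. The labels place the series around weaning but do not date it, and name neither the sex, the litter, the hour of collection nor the place along the ileum. All 8630 genes with a probe set that reached a log2 level of 6 on at least 3 of the 18 arrays were tested, from 18193 genes on the array with a usable name. All levels are log2 values made with RMA, and all differences are day 32 minus day 24 on that scale, so that 1 unit is a 2-fold change. Replicate numbers name arrays in the order of deposit and pair nothing across ages.

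Weaning replaces milk, rich in lactose and fat, with solid food rich in starch. In mice the epithelium of the suckling ileum, which takes up milk proteins whole, gives way to adult enterocytes within days, a change held back before weaning by the repressor Prdm1 (Blimp-1) and advanced by glucocorticoids. The maternal antibodies of milk are lost at the same time, while the pup's own IgA-secreting plasma cells and intraepithelial T cells build up in the weeks that follow. The adult small intestine is also divided along its length: Gata4 marks duodenum and jejunum, where most sugar, fat, iron and folate is absorbed, and bile acid uptake marks the ileum.

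Fabp6, which binds bile acids inside ileal enterocytes, read 12.90, 13.10 and 13.28 on day 24 and 13.04, 13.15 and 12.93 on day 32. Arrays of the same age correlated at 0.987 to 0.993 over all probe sets and arrays of different ages at 0.975 to 0.988. Several measures moved with age or with a single array. The control probe sets for 18S ribosomal RNA read 10.26 to 10.85 on day 24 and 7.01 to 7.96 on day 32, against 4.93 to 8.19 at the suckling ages, so that within the 6 arrays age and 18S level cannot be told apart. The 3′ minus 5′ difference of the beta-actin control, a measure of RNA integrity, was 1.40 on day 24 replicate 3 and 0.48 to 0.65 on the other 5 arrays, and that of Gapdh was 0.27 to 0.92 on day 24 against -0.11 to 0.18 on day 32. That of pyruvate carboxylase was 2.25 to 3.33 on day 24 and 1.58 to 2.59 on day 32, against 0.43 to 0.99 at the suckling ages. The poly-A controls read 5.31 to 5.53 on day 24 and 4.98 to 6.37 on day 32, against 3.53 to 4.51 at the suckling ages. Xist was at 8.68 and the Y-linked Eif2s3y at 2.53 on day 24 replicate 2 alone, the pattern of a female, while the other 5 arrays had the male pattern. Day 32 replicate 1 carried B cell genes: the 22 markers on the array averaged 6.97 there and 3.94 to 4.83 on the other arrays.

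**Figure D1:**
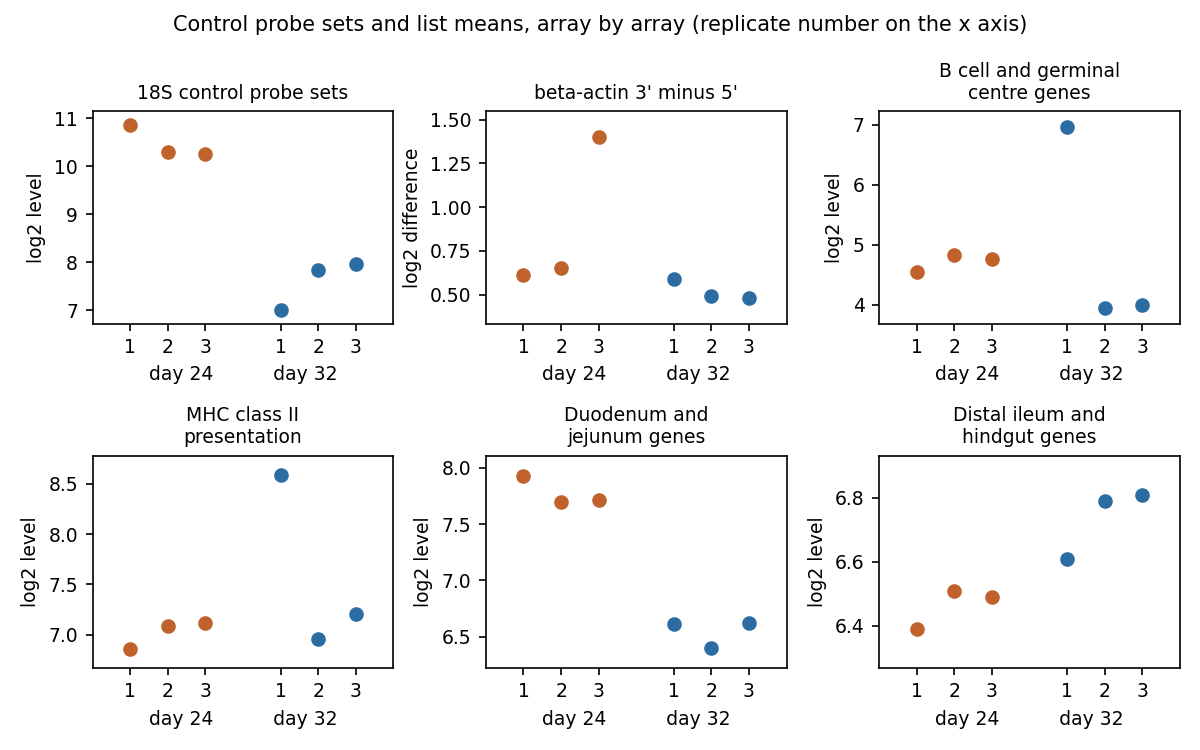
Control probe sets and mean levels of gene lists on each of the 6 arrays; the x axis gives the replicate number within each age and the y axes the log2 level, or for beta-actin the log2 difference between its 3′ and 5′ probe sets. The 18S controls separated the ages. So did the duodenum and jejunum genes and the distal ileum and hindgut genes, but both lists were chosen after the values were seen. B cell and MHC class II genes were high on day 32 replicate 1 (6.97 and 8.59).

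Of 8630 genes, 527 were higher (6.11%) and 537 lower (6.22%) on day 32, called at a Benjamini-Hochberg adjusted p below 0.05 in limma, so that 12.3% were called in either direction. These shares are the background for every count of tested list members below. The median difference was -0.01 and the middle 50% of genes lay between -0.19 and 0.19. Changes of 2-fold or more numbered 62 higher and 93 lower. Of the 1064 called genes 1008 had no overlap between the arrays of the 2 ages, which was also true of 1220 higher and 1161 lower genes among all tested. Since a gene could pass the filter through 3 arrays, 30 of the 527 and 20 of the 537 passed only through the age at which they were high. Among changes of 2-fold or more this held for 17 of the 62 rises and 7 of the 93 falls. Genes of this kind named below include Slc6a14, Gcnt1, Ces1f, Stat2 and Ido1 among the rises and Slc2a5 and Slc7a15 among the falls. With the 18S level as a covariate 73 higher and 121 lower genes were called, 65 and 106 of them among those above. Without day 24 replicate 3 the counts were 302 and 341, without day 32 replicate 2 they were 288 and 283, and without day 32 replicate 1 they were 362 and 324. Where the mice of one age all read near the median of their array (3.88 to 3.97) or lower, which Fam151a, Ccl11 and Afp did on day 32, the size of a difference is a lower bound. The highest value on the 18 arrays was 13.71. Fabp6, Lyz1, Reg3g, Apoa1 and, on day 32, Igha read near it, where differences may be compressed. Such compression was not tested. Genes named below as keeping their call did so with the 18S covariate and with each of the 6 arrays left out in turn.

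**Figure D2:**
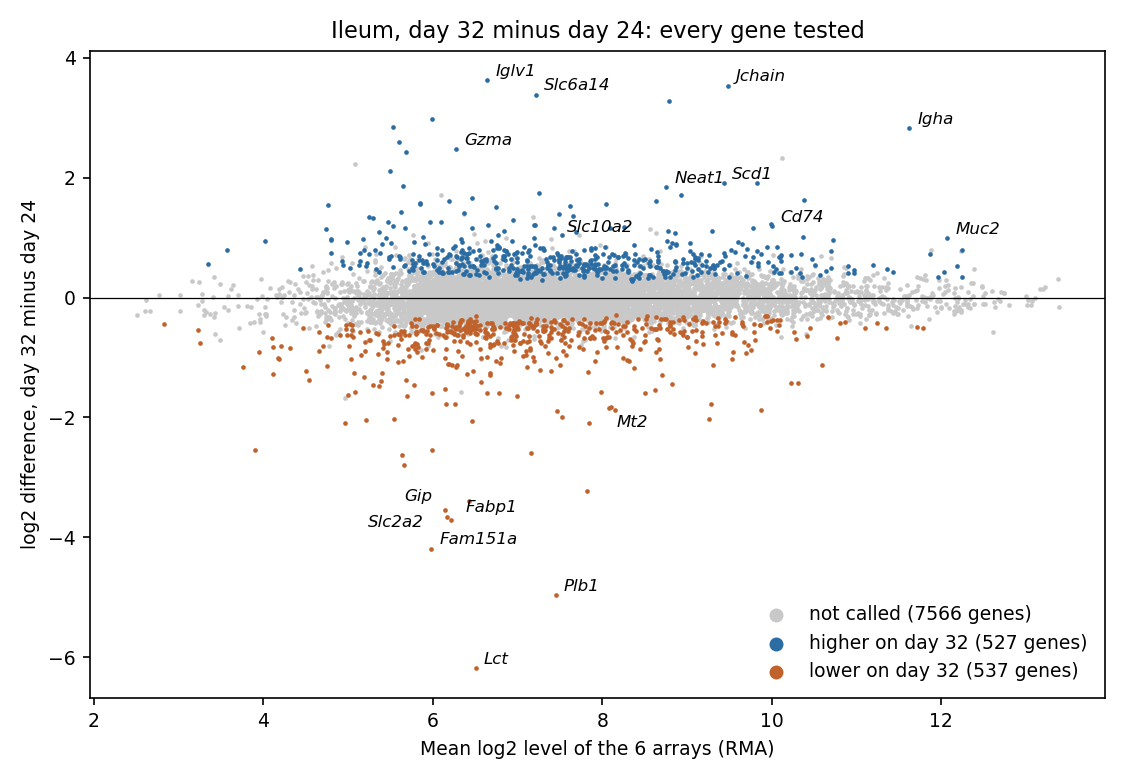
Difference between the ages (log2, y axis) against the mean log2 level of the 6 arrays (x axis) for all 8630 genes, with called genes in blue (higher, 527) and orange (lower, 537). The falls reach further than the rises: Lct fell by 6.19, while the largest rise, of the immunoglobulin light chain Iglv1, was 3.63. Iglv1 passed the filter only through the day 32 arrays.

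Lactase RNA was still high in the pieces of ileum taken on day 24, and its measured fall was the largest of the 8630 genes. Lct, the brush border enzyme that splits milk sugar, read 10.77, 9.54 and 8.49 on day 24 and 3.13, 3.24 and 3.84 on day 32. The 3 mice of day 24 were spread over more than 2 units, all below the day 11 mean of 11.23, and the 3 mice of day 32 were at or below the array medians of 3.88 to 3.97, where signal and background cannot be separated, so that the difference bounds the fall from below. It was -6.19 ± 0.35 (SE, limma adjusted p = 3.14e-09), between -6.75 and -5.61 with any array left out. Here and below the SE comes from a spread pooled over all 18 arrays. For Lct the SD was 1.14 on day 24 and 0.38 on day 32, but 0.04 to 0.20 at the suckling ages. Its SE therefore understates the spread among the 6 mice compared. Plb1, a brush border phospholipase, read 10.43, 10.07 and 9.30 on day 24 and 5.95, 5.17 and 3.75 on day 32 (-4.97 ± 0.38, adjusted p = 1.02e-07). Fam151a went from 8.43, 7.78 and 8.0 to 3.96, 4.06 and 3.64 (-4.19 ± 0.17, adjusted p = 3.88e-11). Unlike Lct, both were near the array medians on day 11, at means of 3.75 and 3.64, so that of the 6 ages sampled their means were highest on day 24. All 3 genes kept their call, but Plb1 and Fam151a passed the filter only through the day 24 arrays.

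Prdm1 and Npl, which were high on day 11, changed by less than Lct. Prdm1, the repressor of the adult programme, read 4.93, 5.02 and 4.88 on day 24 and 6.22, 5.98 and 6.19 on day 32 (1.19 ± 0.12, limma adjusted p = 2.46e-06), against a mean of 9.01 on day 11. It also acts in plasma cells, whose genes rose, and which cells its rise came from was not tested. Npl, an enzyme of sialic acid breakdown, went from 8.59, 8.34 and 7.45 to 4.88, 4.60 and 4.72 (-3.39 ± 0.20), after a day 11 mean of 12.03. Igf2bp3, a fetal RNA-binding protein, went from 7.01, 7.05 and 7.13 to 4.10, 4.91 and 3.81 (-2.79 ± 0.24). These 3 genes kept their call. Over the 17 tested genes of the late-lost suckling list, chosen with earlier results of these data known, 2 were higher and 4 lower with a median of -0.12, though Plb1 and Fam151a go against its name by their low levels on day 11: besides Lct, Plb1 and Fam151a the endocytic receptor chaperone Amn fell by 0.69, and the sialidase Neu1 rose by 0.49, or 0.44 (adjusted p = 0.0524) without day 32 replicate 2. Treh, the adult trehalase, read 8.80, 8.22 and 8.40 against 7.85, 7.86 and 8.56 (adjusted p = 0.195), and Arg2, an arginase, fell by 0.68 (adjusted p = 0.0490), a call that ended without day 24 replicate 1 (difference -0.29) or any of the 3 day 32 arrays (-0.74 to -0.62).

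The promoter of Lct is shown as that of the gene with the largest change, printed 5′ to 3′ on the gene's strand, 250 bases up to the start, from RefSeq on GRCm38.p6.
Lct (chr1:128328319-128328568, minus strand): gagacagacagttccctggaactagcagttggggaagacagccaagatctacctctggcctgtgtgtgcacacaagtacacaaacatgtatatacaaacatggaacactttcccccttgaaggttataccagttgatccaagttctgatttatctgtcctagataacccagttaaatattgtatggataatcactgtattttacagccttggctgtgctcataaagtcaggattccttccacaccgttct
Within the 300-base window that also holds 50 bases after the start, none of 4 motifs was found on either strand: CCAAT, GAAANNGAA (bound by interferon regulatory factors), TTTATNG (bound by caudal factors such as Cdx2) and GTTAAT (bound by hepatocyte nuclear factor 1). They occur in 37.4%, 8.56%, 10.9% and 7.10% of the 32851 promoter windows of that length. Only exact letters were matched, so sites that vary from them would be missed, and no other motif was searched.

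**Figure D3:**
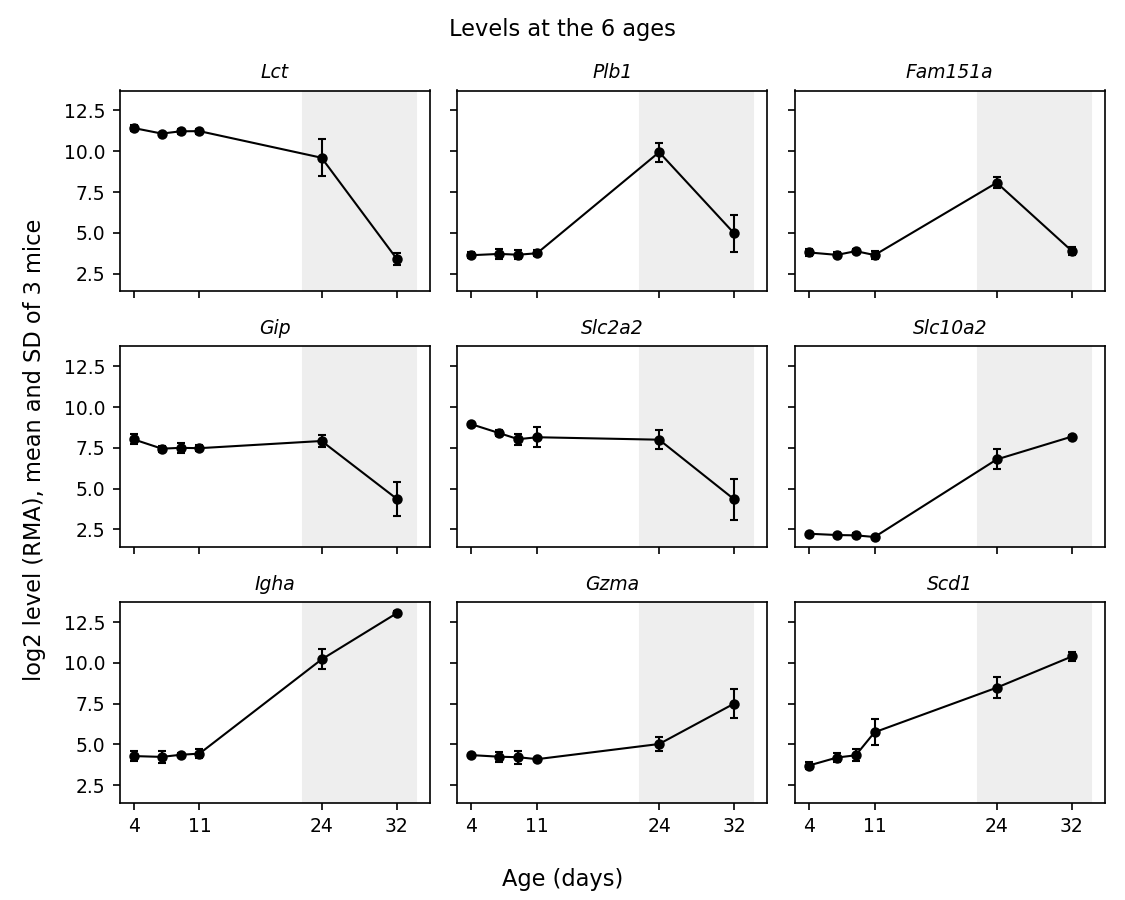
Mean log2 level with SD (3 mice per age) of 9 genes at the 6 ages, in days on the x axis; days 24 and 32 are shaded. Lct stayed above 8 up to day 24 and fell to 3.41 on day 32, the means of Plb1 and Fam151a were highest on day 24, and Igha, Gzma, Slc10a2 and Scd1 were highest on day 32.

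Sugar and fat handling genes that are strongest in the upper intestine fell. Of 11 genes of carbohydrate digestion and sugar uptake 6 were lower and 1 higher, with a median of -0.69. Slc2a2, the glucose and fructose exporter of the enterocyte (GLUT2), read 8.69, 7.71 and 7.61 on day 24 and 5.17, 2.91 and 4.94 on day 32 (-3.66 ± 0.43, adjusted p = 2.17e-05). The gluconeogenic enzyme Fbp1 went from 8.40, 7.82 and 7.98 to 7.28, 6.35 and 7.19 (-1.13 ± 0.19, adjusted p = 0.000730). Slc2a5, the fructose transporter, fell by 1.01 ± 0.23 (adjusted p = 0.00788) and the inositol and glucose transporter Slc5a11 by 1.27 ± 0.21 (adjusted p = 0.000861). The higher gene was Mgam, which digests starch, at 11.14, 11.20 and 11.05 against 11.76, 11.49 and 11.56 (0.47 ± 0.09, adjusted p = 0.00304). Slc5a1, the main sodium-coupled glucose transporter, differed by -0.18 and was not called. The falls numbered 4 to 6 with any array left out. With the 18S covariate 2 genes were lower, Slc2a2 and Fbp1, and none higher, with a median of -0.64; Slc5a11 then differed by -1.30 (adjusted p = 0.0578) and Slc2a5 by -0.73 (adjusted p = 0.308).

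Among 22 genes of lipoprotein assembly and fat absorption, 7 were lower and 1 higher, with a median of -0.23. Fabp1, the fatty acid binding protein of liver and proximal gut, read 8.51, 8.07 and 7.65 on day 24 and 5.18, 3.49 and 4.42 on day 32 (-3.71 ± 0.33, adjusted p = 6.37e-07). The apolipoprotein Apoc3 went from 11.00, 10.15 and 9.69 to 8.14, 7.80 and 8.83 (-2.03 ± 0.26, adjusted p = 5.28e-05). Apoa4, made as chylomicrons are assembled, went from 11.28, 10.61 and 10.55 to 9.50, 9.16 and 8.15 (-1.88 ± 0.24, adjusted p = 4.77e-05). Creb3l3, a transcription factor that drives these apolipoprotein genes in liver and gut, went from 9.41, 8.88 and 8.97 to 7.25, 7.37 and 7.03 (-1.87 ± 0.13, adjusted p = 2.41e-08). These 4 genes, like Slc2a2 and Fbp1, kept their call and did not overlap between the ages. The main apolipoprotein of the list, Apoa1, read 13.27 to 13.55 on day 24 and 13.16 to 13.48 on day 32 and was not called, and the fatty acid receptor Cd36 rose by 0.98 ± 0.24 (adjusted p = 0.0113), a call that ended without day 24 replicate 3 (0.85, adjusted p = 0.0592).

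Of 18 tested genes of the duodenum and jejunum, a list chosen after the values were seen, 13 were lower and 1 higher, with a median of -1.28, and 12 or 13 fell with any array left out. The list shares 9 genes, 7 of them lower, with the sugar and fat lists above; of its other 9 genes 6 were lower. Gata4, the transcription factor that sets jejunal identity, read 6.85, 6.10 and 5.76 on day 24 and 4.41, 4.62 and 3.52 on day 32 (-2.05 ± 0.26, adjusted p = 4.57e-05). S100g, the vitamin D dependent calcium binding protein of the duodenum, went from 8.90, 9.85 and 9.57 to 5.91, 5.84 and 6.89 (-3.23 ± 0.24, adjusted p = 7.87e-08). The folate transporter Slc46a1 fell by 1.06 ± 0.17 and the retinol binding protein Rbp2 by 1.30 ± 0.17, while the iron importer Slc11a2 rose by 0.72 ± 0.13. Of these, Gata4, S100g, Slc46a1 and Rbp2 kept their call, though Gata4 passed the filter only through the day 24 arrays. The mean of all 22 genes of that list on the array was 7.93, 7.70 and 7.71 on day 24 and 6.61, 6.40 and 6.62 on day 32.

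Of 18 tested genes that are stronger towards the distal ileum and colon, in a list also chosen after the values were seen, 5 were higher and 1 lower. The rises of Plet1, Hoxb6 and Muc4 are of genes that passed the filter only through the day 32 arrays. The median was 0.30, or 0.10 without day 24 replicate 1 and 0.07 with no filter, and the mean of the 28 genes on the array was 6.39 to 6.51 on day 24 and 6.61 to 6.81 on day 32. Hoxb6 read 4.76, 4.53 and 4.85 against 6.19, 6.81 and 6.74 (1.87 ± 0.17, adjusted p = 1.26e-06), and Hoxb3 4.08, 3.88 and 4.01 against 5.42, 5.68 and 5.53 (1.55 ± 0.15). The membrane mucin Muc4 read 4.60, 5.26 and 5.33 against 6.71, 6.98 and 6.24 (1.58 ± 0.19). Plet1, an epithelial surface protein, rose by 2.85 ± 0.18 on the tested probe set, but on its other, brighter over all 18 arrays, it read 4.05 to 4.36 and 4.14 to 4.17 with a difference of -0.05. Other Hox genes of the list on the array gave differences of both signs, such as 0.45 for Hoxb5 and -0.44 for Hoxa5, neither of them called. The part that the position of the piece along the gut had in the falls of Lct, Plb1, Fam151a and the sugar, fat and hormone genes was not tested.

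Bile acid handling, the function of the ileum itself, changed in 4 of 8 genes, against 12.3% of all genes. Slc10a2, the apical bile acid transporter, read 6.88, 7.34 and 6.14 on day 24 and 8.07, 8.31 and 8.18 on day 32 (1.40 ± 0.19, adjusted p = 0.000110), and kept its call. The basolateral transporter Abcc3 rose by 0.80 ± 0.18, and Nr1h4, the bile acid receptor FXR, by 0.45 ± 0.14, a call that ended without day 24 replicate 1 or 2 or day 32 replicate 2 or 3 (differences 0.28 to 0.47). Abcc2, an apical exporter of conjugates that is strongest in the upper intestine, went from 7.41, 6.23 and 5.89 to 5.23, 5.01 and 4.91 (-1.46 ± 0.26, adjusted p = 0.00121). Fgf15, the ileal hormone that restrains bile acid synthesis, read 4.91, 6.68 and 7.09 against 7.41, 6.52 and 5.95 (adjusted p = 0.559), and the ages overlapped. The list median of 0.30 was -0.04 with the 18S covariate.

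Of 17 genes of cholesterol synthesis 10 were higher and none lower (limma adjusted p below 0.05, 6.11% of all genes being higher), the median was 0.55 and all 17 differences were above 0. Insig1, the sterol sensor, read 6.12, 6.42 and 6.90 against 7.14, 7.53 and 7.10 (0.78 ± 0.17, adjusted p = 0.00532), and the squalene epoxidase Sqle 8.97, 9.45 and 9.19 against 9.82, 10.18 and 10.26 (0.89 ± 0.22, adjusted p = 0.0137). Lss, the lanosterol synthase, rose by 0.82 ± 0.18 (adjusted p = 0.00716). Without day 32 replicate 2 the list had 4 rises, without any other array 7 to 10, and with the 18S covariate 0, the median then being 0.28; Sqle was among the calls that ended, at 0.84 without that array and 0.77 without day 24 replicate 1.

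Of 17 fatty acid synthesis genes, a list chosen after the values were seen, 8 were higher and none lower with a median of 0.50. Scd1 and Scd2 are desaturases that make monounsaturated fatty acids. Scd2 read 8.72, 9.00 and 8.88 on day 24 and 10.45, 11.11 and 10.82 on day 32 (1.92 ± 0.15, adjusted p = 1.77e-07) and kept its call. Scd1 read 8.71, 7.74 and 8.99 against 10.66, 10.38 and 10.13 (1.91 ± 0.33, adjusted p = 0.00121), or 1.11 with an adjusted p of 0.244 with the 18S covariate. The fatty acid synthase Fasn rose by 1.12 ± 0.18, the citrate lyase Acly by 0.93 ± 0.13 and the acetyl-CoA carboxylase Acaca by 0.79 ± 0.14. Fat cells also express these enzymes, and the 9 adipocyte genes on the array, Scd1 among them, averaged 7.75, 6.78 and 7.84 on day 24 and 8.25, 7.96 and 8.24 on day 32. Of 8 adipocyte genes tested 3 were higher and none lower. The adipocyte hormone Adipoq read 8.34, 7.17 and 8.45 against 9.28, 8.70 and 9.40 (adjusted p = 0.0848). The part of attached fat in the rise of these enzymes was not tested.

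Amino acid transporters went in both directions, with 3 of 14 higher and 4 lower. Slc6a14, a broad transporter of neutral and cationic amino acids known from the distal gut, read 3.44, 6.73 and 6.39 on day 24 and 8.11, 9.91 and 8.71 on day 32 (3.39 ± 0.58, adjusted p = 0.00102). The difference was 2.35 to 3.99 with any array left out, the lowest without day 24 replicate 1, and 2.74 with an adjusted p of 0.137 with the 18S covariate. The basolateral exchanger Slc7a8 went from 6.91, 6.84 and 6.63 to 5.13, 5.17 and 5.28 (-1.60 ± 0.11, adjusted p = 3.11e-08), and Slc7a15 and the aromatic amino acid transporter Slc16a10 fell by 1.29 ± 0.17 and 1.05 ± 0.14. These 3 falls kept their call. The main apical transporter of neutral amino acids, Slc6a19, differed by 0.15 and was not called.

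Of 15 genes of ion, sulfate and water transport 1 was higher and 2 lower, and of 13 genes of iron, copper and zinc handling 3 were higher and 4 lower, with medians of -0.17 and 0.27. Over all genes 6.11% were higher and 6.22% lower. The metal genes gave 0 rises and 2 falls with the 18S covariate, and without day 24 replicate 1 they gave 2 of each. Besides Slc11a2 their rises were the transferrin receptor Tfrc (0.71) and the copper pump Atp7a (0.53). Slc13a1, the sulfate transporter, read 9.10, 9.85 and 9.74 on day 24 and 11.00, 11.29 and 11.28 on day 32 (1.63 ± 0.15, adjusted p = 1.50e-06). The sodium/proton exchanger Slc9a3 went from 6.63, 8.48 and 7.63 to 6.02, 6.11 and 5.81 (-1.60 ± 0.30, adjusted p = 0.00220), and uroguanylin, Guca2b, from 11.68, 11.04 and 10.77 to 9.86, 10.00 and 10.23 (-1.13 ± 0.18). These 3 kept their call. The zinc-binding metallothioneins overlapped between the ages. Mt1 read 11.53, 10.85 and 10.43 against 9.44, 8.64 and 10.47 (-1.42 ± 0.32, adjusted p = 0.00762), and Mt2 10.18, 8.69 and 8.13 against 7.46, 5.60 and 8.39 (-1.85 ± 0.52, adjusted p = 0.0267). Day 32 replicate 2 was the lowest for both, and without it the difference of Mt2 was -1.07 (adjusted p = 0.143); it was -1.26 (adjusted p = 0.116) without day 24 replicate 1, while Mt1 remained called in all 6 such fits with a difference between -1.90 and -0.98.

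Hormone genes of enteroendocrine cells were lower on day 32. Of 11 tested 6 were lower and none higher, with a median of -0.75, and the number of falls was 6 with each array left out and with the 18S covariate. Gip, the incretin made by K cells of the upper intestine, read 8.29, 7.60 and 7.85 on day 24 and 5.57, 3.78 and 3.78 on day 32 (-3.54 ± 0.34, adjusted p = 1.73e-06). The granule proteins that all enteroendocrine types share fell too. Chga went from 7.91, 7.54 and 8.02 to 6.15, 6.34 and 6.07 (-1.64 ± 0.14, adjusted p = 5.17e-07). Chgb went from 9.47, 9.48 and 9.67 to 8.01, 8.22 and 8.08 (-1.44 ± 0.10, adjusted p = 3.87e-08). In bulk tissue fewer cells of a type and less RNA per cell cannot be told apart, here and in every result below.

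Cck, another hormone of the upper gut, went from 5.91, 6.03 and 6.16 to 4.61, 5.03 and 4.67 (-1.26 ± 0.18, adjusted p = 0.000178). Neurotensin, Nts, a hormone of the ileum, went from 10.16, 10.20 and 10.01 to 9.26, 9.31 and 9.42 (-0.79 ± 0.12, adjusted p = 0.000244), and somatostatin, Sst, fell by 0.75 ± 0.15. Gcg and Pyy, the products of ileal and colonic L cells, differed by 0.12 and -0.26 and were not called. With no filter on dim probe sets, where 3.04% of 18193 genes were higher and 3.48% lower, 12 of 20 members of the list were lower and 1 higher. The falls then included Neurog3, the factor that specifies the lineage (4.94, 4.76 and 4.86 against 3.83, 3.60 and 4.10), and Tph1, the enzyme of serotonin synthesis (5.36, 4.70 and 4.99 against 3.29, 3.50 and 3.58). The single rise was Insl5, a hormone of colonic L cells, at 3.11, 3.05 and 3.06 against 3.61, 4.03 and 5.66.

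Other epithelial lineages differed little. Muc2, the gel-forming mucin of goblet cells, read 11.54, 11.56 and 11.59 on day 24 and 12.34, 12.50 and 12.86 on day 32 (1.00 ± 0.14, adjusted p = 0.000165) and kept its call, as the only called gene among 15 goblet cell genes (median 0.24). Of 7 Paneth cell genes only the stress-response gene Nupr1, which is not particular to these cells, was called (0.72 ± 0.18, adjusted p = 0.0128); the call ended without day 24 replicate 1 (0.53) or day 32 replicate 3 (0.54). The lysozyme Lyz1 read 13.05, 13.24 and 12.99 against 13.24, 13.28 and 13.19 (limma adjusted p = 0.451). Its other probe sets went from 13.22 to 13.44 and from 4.28 to 5.61. None of 8 crypt stem cell genes and none of 23 genes of DNA replication and mitosis was called in limma, with medians of -0.07 and 0.11. Epithelial keratins and brush border structure genes gave 0 of 18, and cytosolic ribosomal proteins 0 of 19. Tuft cell genes were below the filter.

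Saa1, Reg3g and Reg3b, which bacteria induce, varied more between the mice of day 24 than between those of day 32. Reg3g and Reg3b varied more still on day 9, with SDs of 1.82 and 1.11 against 0.60 and 0.40 on day 24. Saa1, an acute-phase protein of the ileal epithelium, read 4.68, 10.93 and 11.25 on day 24 and 11.13, 11.93 and 10.79 on day 32 (adjusted p = 0.163), so that day 24 replicate 1 alone was low; without it the difference was 0.19. Retnlb, a goblet cell protein, was at 2.92 on that array and at 5.90 to 8.83 on the others (adjusted p = 0.131). The antibacterial lectin Reg3g read 12.52, 13.53 and 13.61 against 13.40, 13.71 and 13.50 (adjusted p = 0.766), and Reg3b 11.90, 12.25 and 12.70 against 12.16, 12.24 and 11.99 (adjusted p = 0.837). The glycosyltransferase Gcnt1 was also lowest on that array, at 3.30, 4.78 and 5.30 on day 24 against 7.36, 6.77 and 6.56 on day 32 (2.43 ± 0.32, adjusted p = 8.27e-05), and there the ages did not overlap.

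**Figure D4:**
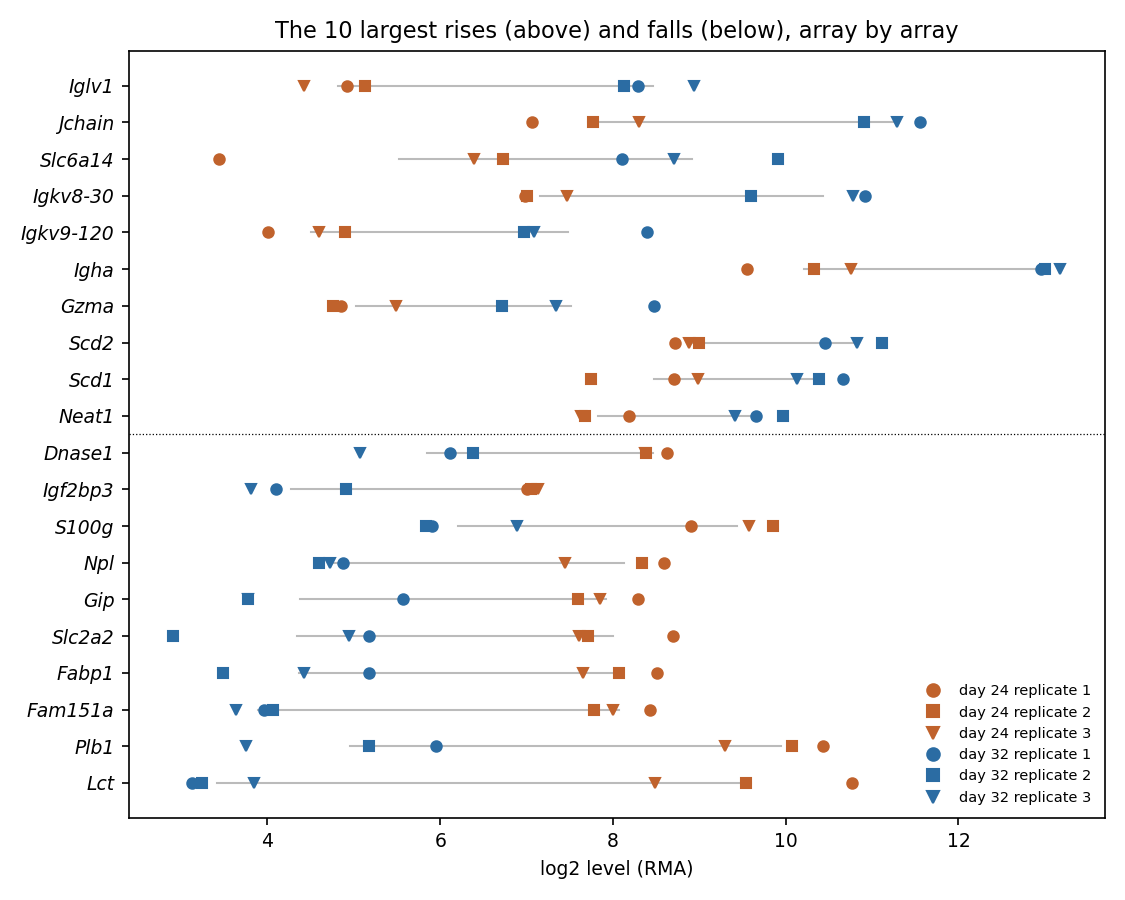
Log2 level on each array (x axis) of the 10 called genes with the largest rises and the 10 with the largest falls among those with a mean of at least 7 at the brighter age and no overlap between the ages; grey lines join the means of 3 mice. Day 24 replicate 1 was low for Slc6a14 (3.44), and Lct was spread from 8.49 to 10.77 on day 24.

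Antibody genes gave 5 of the 10 largest rises. Igha, the heavy chain of IgA, read 9.55, 10.33 and 10.76 on day 24 and 12.95, 13.00 and 13.18 on day 32 (2.83 ± 0.24, adjusted p = 5.05e-07), after a mean of 4.44 on day 11. Jchain, the chain that joins IgA into dimers, went from 7.06, 7.77 and 8.30 to 11.55, 10.91 and 11.29 (3.54 ± 0.22, adjusted p = 1.14e-08). The light chain Iglv1 went from 4.92, 5.13 and 4.42 to 8.29, 8.13 and 8.94 (3.63 ± 0.19, adjusted p = 1.10e-09). The kappa variable segment Igkv8-30 rose by 3.28 ± 0.25 and another kappa segment by 2.98 ± 0.27; their probe sets, like that of Iglv1, can read related segments. These 5 genes kept their call, but Iglv1 and the other kappa segment passed the filter only through the day 32 arrays. Further probe sets of Iglv1 rose by 0.96 and 2.48, and those of that kappa segment by 0.25 and 1.55. The mice of day 32 were close to each other for Igha and those of day 24 were spread over more than 1 unit.

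Of 7 tested genes of plasma cells and IgA 4 were higher, with a median of 1.19. Besides Igha, Jchain and Prdm1 these included Mzb1, a chaperone of antibody assembly, at 5.07, 5.34 and 5.73 against 8.27, 6.29 and 6.44 (1.62 ± 0.33, adjusted p = 0.00415), or 0.98 without day 32 replicate 1. Mzb1 passed the filter only through the day 32 arrays. Ighm, the heavy chain of IgM, read 7.45, 7.85 and 7.72 on day 24 and 9.61, 6.39 and 6.47 on day 32 and was not called. Pigr, the receptor that carries IgA across the epithelium, read 11.82 to 12 on day 24 and 12.32 to 12.52 on day 32 (0.53 ± 0.15, adjusted p = 0.0269), but its call ended without day 24 replicate 1 or 3 or day 32 replicate 1 or 2 (differences 0.48 to 0.54). Ccl28, the chemokine that draws IgA plasma cells into mucosa, rose by 0.66 ± 0.16 (adjusted p = 0.0140), or 0.55 (adjusted p = 0.0758) without day 32 replicate 2.

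B cell genes did not separate the ages. The mean of the 22 on the array was 6.97 on day 32 replicate 1, 3.94 and 4.00 on the other day 32 arrays and 4.54 to 4.83 on day 24. Cd79b, part of the B cell receptor, read 5.38, 6.24 and 6.23 on day 24 and 8.69, 4.57 and 4.75 on day 32. Cxcl13, the chemokine of B cell follicles, read 6.00, 6.86 and 6.17 against 9.55, 3.91 and 4.34. The only called member of 3 tested was Swap70 (0.70), whose difference was 0.38 without day 32 replicate 1 and whose call also ended without day 24 replicate 2 or 3. By contrast, Igha was at 13.00 and 13.18 on the other day 32 arrays and 12.95 on replicate 1.

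Cytotoxic T cell genes rose on all 3 arrays of day 32. Gzma, a granzyme of intraepithelial T cells, read 4.85, 4.76 and 5.49 on day 24 and 8.48, 6.72 and 7.34 on day 32 (2.48 ± 0.31, adjusted p = 4.83e-05). Gzmb went from 4.06, 4.36 and 4.48 to 7.98, 6.35 and 6.36 (2.60 ± 0.28, adjusted p = 9.18e-06). The chemokine Ccl5, stored in such cells, went from 4.28, 4.32 and 4.69 to 6.69, 6.10 and 6.88 (2.12 ± 0.16, adjusted p = 7.87e-08). All 3 kept their call, and all 3 passed the filter only through the day 32 arrays. With no filter, 11 of the 34 T cell genes on the array were higher and none lower (limma; 3.04% and 3.48% of all genes), 31 had a mean difference above 0 and 13 were higher without overlap between the ages; over all 18193 genes these shares were 40.8% and 9.24%. Cd3g, a chain of the T cell receptor complex, read 3.36, 3.61 and 3.79 against 5.51, 4.86 and 4.16, and the integrin Itgae 4.33, 4.60 and 4.28 against 4.92, 4.88 and 4.97. Cd8a read 4.44, 4.75 and 4.85 against 4.52, 4.31 and 4.43. Day 32 replicate 1, the array with B cell genes, had the highest mean of the list at 4.82, and the other arrays of that age were at 4.26 and 4.33 against 3.76 to 4.01 on day 24.

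MHC class II genes were higher, most of all on day 32 replicate 1. Of 8 tested 5 were higher and 1 lower, with a median of 0.76, or 0.38 without day 32 replicate 1; 2 were higher without day 24 replicate 1. Cd74, the invariant chain, read 9.18, 9.50 and 9.55 on day 24 and 11.30, 9.97 and 10.53 on day 32 (1.19 ± 0.24, adjusted p = 0.00356), or 0.84 (adjusted p = 0.0140) without that array. H2-Ab1 read 7.95, 8.21 and 8.50 against 9.87, 8.76 and 9.35 (1.11 ± 0.21, adjusted p = 0.00271), or 0.83 (adjusted p = 0.0137) without it. H2-Eb1 rose by 0.91 ± 0.23, or 0.49 (adjusted p = 0.0241) without it, and 0.80 (adjusted p = 0.0558) without day 24 replicate 1. H2-Aa, at 8.94, 9.32 and 9.33 against 10.71, 9.40 and 9.75, rose by 0.76 ± 0.22 (adjusted p = 0.0289), but gave 0.38 (adjusted p = 0.101) without that array, 0.63 (adjusted p = 0.098) without day 24 replicate 1 and 0.83 (adjusted p = 0.0523) without day 24 replicate 3. H2-DMa, which loads peptides, rose by 0.76, or 0.38 (adjusted p = 0.164) without day 32 replicate 1, and its call also ended without day 24 replicate 1 or 2. None of these calls held with the 18S covariate, where the list median was 0.32. The share of class II signal from the B cells of that array was not tested; on the other arrays of day 32 the mean of the 12 class II genes was 6.96 and 7.21, against 6.86 to 7.12 on day 24.

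Class I presentation differed less. Of 12 genes H2-K1 alone was higher, at 11.28, 11.29 and 11.11 against 11.68, 11.56 and 11.68 (0.42 ± 0.12, adjusted p = 0.0356), and its call ended without any array but day 24 replicate 2 (differences 0.36 to 0.46). The list median was 0.20, and -0.14 with the 18S covariate. The available promoters of the called class II and class I genes are shown. These genes were called higher, apart from Ifi30, a thiol reductase of antigen processing. Ifi30 fell by 0.32 and lost its call without any array but day 32 replicate 3. Each promoter is 250 bases up to the first listed start, from RefSeq on GRCm38.p6, with CCAAT motifs on either strand in capitals.
H2-Eb1 (chr17:34305617-34305866, plus strand): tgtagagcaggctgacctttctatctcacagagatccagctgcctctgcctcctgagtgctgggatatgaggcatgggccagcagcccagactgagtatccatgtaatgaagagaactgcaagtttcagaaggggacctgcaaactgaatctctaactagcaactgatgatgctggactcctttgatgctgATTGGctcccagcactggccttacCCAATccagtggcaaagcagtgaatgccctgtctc
H2-Aa (chr17:34287824-34288073, minus strand): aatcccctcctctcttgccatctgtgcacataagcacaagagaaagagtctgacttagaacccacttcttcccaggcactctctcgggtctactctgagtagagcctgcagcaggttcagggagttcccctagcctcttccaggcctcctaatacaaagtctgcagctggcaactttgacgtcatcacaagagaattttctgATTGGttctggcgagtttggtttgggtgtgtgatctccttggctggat
H2-DMa (chr17:34122582-34122831, plus strand): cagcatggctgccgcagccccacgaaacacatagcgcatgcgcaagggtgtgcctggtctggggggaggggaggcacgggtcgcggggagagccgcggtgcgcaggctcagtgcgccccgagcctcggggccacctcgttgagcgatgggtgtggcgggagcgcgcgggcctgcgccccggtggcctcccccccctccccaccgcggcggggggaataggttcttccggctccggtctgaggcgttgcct
H2-K1 (chr17:34000348-34000597, minus strand): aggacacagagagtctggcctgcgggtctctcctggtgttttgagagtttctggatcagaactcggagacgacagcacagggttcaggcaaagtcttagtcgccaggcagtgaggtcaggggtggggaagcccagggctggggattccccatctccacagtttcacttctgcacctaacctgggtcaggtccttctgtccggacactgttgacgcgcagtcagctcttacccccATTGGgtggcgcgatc
Ifi30 (chr8:70766664-70766913, minus strand): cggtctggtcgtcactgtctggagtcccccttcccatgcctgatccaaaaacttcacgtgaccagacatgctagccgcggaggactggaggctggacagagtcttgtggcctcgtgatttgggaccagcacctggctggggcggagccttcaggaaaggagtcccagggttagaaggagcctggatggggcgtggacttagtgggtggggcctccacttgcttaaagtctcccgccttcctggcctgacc
CCAAT in either orientation, the letters of the Y box of class II promoters, was found upstream of the start in H2-Eb1, H2-Aa and H2-K1, and in 37.4% of all promoter windows; GAAANNGAA was found in none of the 5 windows.

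Interferon-stimulated genes split. Of 27 tested 4 were higher and 8 lower, with a median of 0.31 that was -0.05 without day 24 replicate 1 and -0.04 without day 32 replicate 1. The falls were antiviral genes of the type I response. Usp18, its feedback inhibitor, read 7.33, 7.05 and 7.95 on day 24 and 6.42, 4.74 and 6.35 on day 32 (-1.60 ± 0.32, adjusted p = 0.00366), or -1.06 (adjusted p = 0.00749) without day 32 replicate 2. Rsad2 (viperin) read 8.63, 7.80 and 8.96 against 7.60, 7.10 and 6.94 (-1.25 ± 0.23, adjusted p = 0.00186), and Ifit1, which binds foreign RNA, 9.03, 9.16 and 9.39 against 8.60, 7.62 and 8.29 (-1.02 ± 0.19, adjusted p = 0.00215). The rises were Stat2, Irf8 and the GTPases Iigp1 and Irgm2, with differences of 1.17, 0.58, 0.83 and 0.76. The other probe set of Stat2 went from 5.16 to 5.48, a difference of 0.32. Stat2 was at 0.87 (adjusted p = 0.059) without day 24 replicate 3, and without day 24 replicate 1 Irf8 was at 0.34 and Iigp1 at 0.50. Irgm2 was at 0.41 without day 32 replicate 1 and lost its call without any of the 3 day 24 arrays. Only 1 of them remained without day 24 replicate 1, and only 1 without day 32 replicate 1, while 6 to 9 falls were called with any array left out. With the 18S covariate no member was called, and Usp18 had a difference of -1.83.

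**Figure D5:**
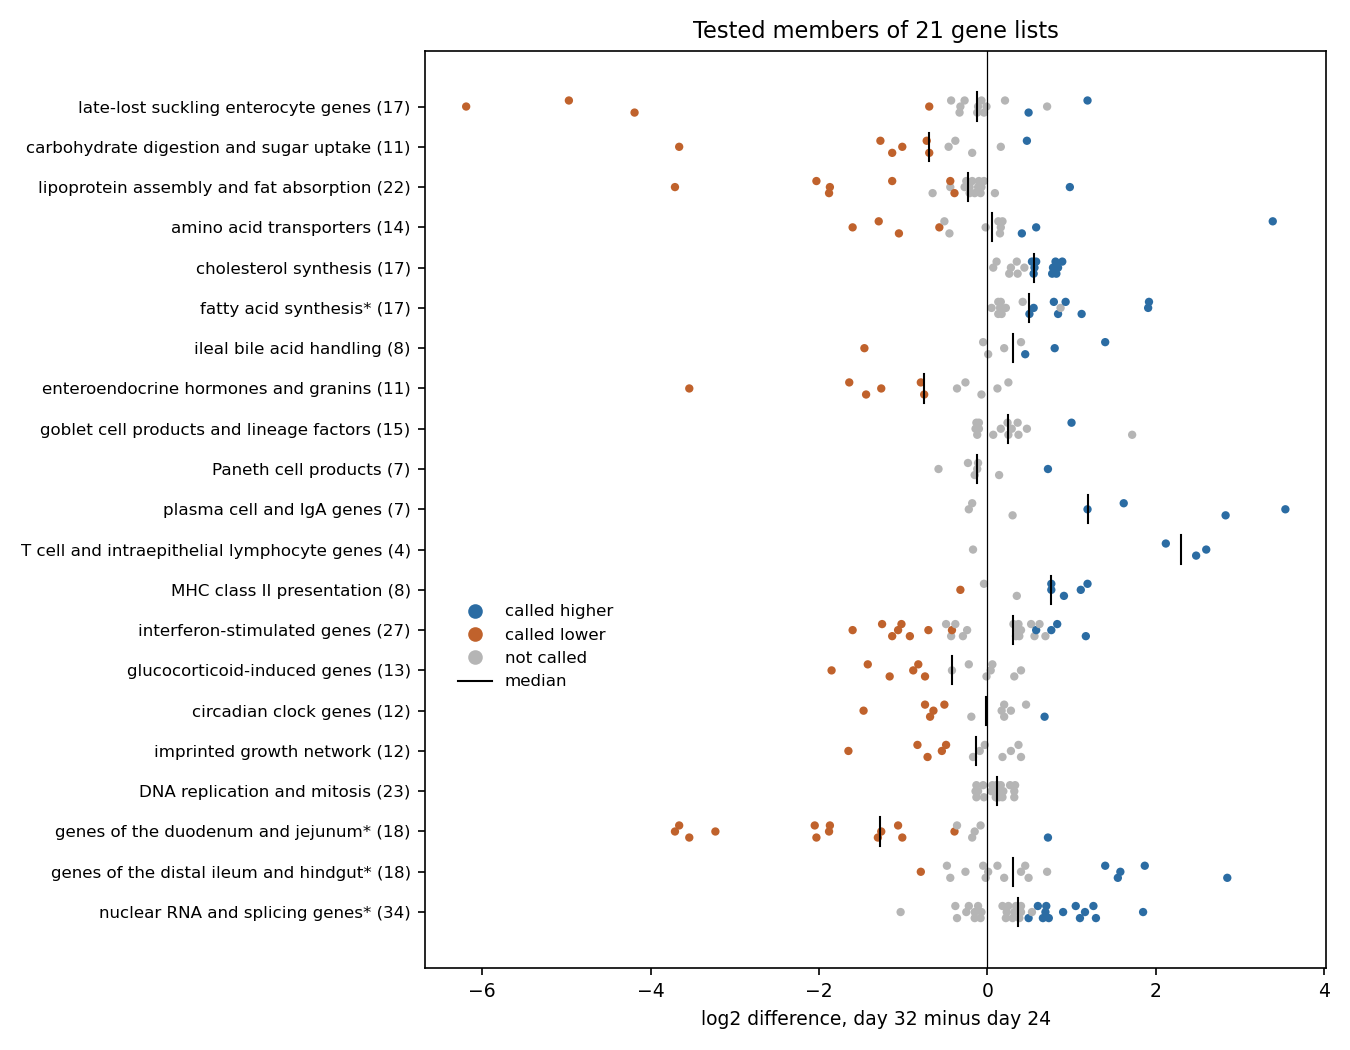
Difference between the ages (log2, x axis) of every tested member of 21 gene lists, the number tested in brackets; blue and orange points were called higher and lower, grey were not called, and bars are medians. Asterisks mark lists chosen after the values were seen. The 4 T cell genes tested have a median of 2.30, but 3 of them passed the filter only through the day 32 arrays, and with no filter the median of that list was 0.41.

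Glucocorticoid-induced genes were lower, with 6 of 13 called and a median of -0.42. Tsc22d3, the glucocorticoid-induced leucine zipper, read 6.60, 6.86 and 7.11 on day 24 and 5.57, 5.63 and 5.90 on day 32 (-1.16 ± 0.15, adjusted p = 8.23e-05) and kept its call. Fkbp5, a receptor co-chaperone, went from 8.16, 8.25 and 8.01 to 7.24, 7.47 and 7.24 (-0.82 ± 0.15, adjusted p = 0.00212). The kinase Sgk1 fell by 0.88 ± 0.21 (adjusted p = 0.0114), a call that ended without day 24 replicate 3 or day 32 replicate 1 or 2 (differences -0.79 to -0.73). The other falls were Mt1, Mt2 and Per1, which the list shares with metal handling and the clock. The number of falls was 4 to 6 with any array left out and 2 with the 18S covariate.

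Of 12 circadian clock genes 5 were lower and 1 higher, with a median of -0.01, where 6.22% of all genes were lower and 6.11% higher. Dbp, an output gene of the clock, read 6.29, 5.85 and 6.16 against 4.98, 4.22 and 4.71 (-1.47 ± 0.17, adjusted p = 2.17e-05) and kept its call. Per1 read 5.69, 5.54 and 5.51 against 4.63, 4.91 and 4.96 (-0.74 ± 0.14, adjusted p = 0.00215). The activator Arntl, which runs opposite to Dbp and Per1 through the day, differed by 0.46 and was not called, and Clock rose by 0.68 ± 0.20 (adjusted p = 0.0332), a call that ended without day 24 replicate 1 or 3 or day 32 replicate 1 or 2 (differences 0.55 to 0.69). Hspa1b, an inducible HSP70 chaperone, went from 8.20, 9.41 and 8.70 to 7.12, 7.23 and 7.24 (-1.58 ± 0.22, adjusted p = 0.000126) and kept its call. Of 15 immediate early and heat shock genes 5 were lower and 1 higher with a median of 0.06, and the falls numbered 2 without day 32 replicate 1 and 3 without day 24 replicate 3 or either other day 32 array.

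Of 12 genes of the imprinted growth network 5 were lower and none higher, with a median of -0.13. Igf2, the fetal growth factor, read 7.08, 6.21 and 6.27 on day 24 and 4.26, 4.70 and 5.65 on day 32 (-1.65 ± 0.26, adjusted p = 0.000520), after a mean of 9.59 on day 11. Peg3 fell by 0.71 ± 0.12 and the signalling adaptor Grb10 by 0.54 ± 0.09. No member was called with the 18S covariate, where Igf2 differed by -1.59 (adjusted p = 0.0617) and Grb10 by -0.51 (adjusted p = 0.0599). Afp, alpha-fetoprotein, read 6.31, 4.54 and 4.69 against 2.70, 2.49 and 2.71 (-2.55 ± 0.29, adjusted p = 1.52e-05). Of 27 matrix and fibroblast genes 3 were lower and 1 higher, of 15 smooth muscle genes 3 lower, of 13 vessel genes 4 lower, and none of 7 enteric neuron and glia genes was called in limma. Over all genes 6.22% were lower and 6.11% higher, and the matrix counts were near these shares. The vessel falls numbered 0 without day 32 replicate 1, 1 without day 24 replicate 2 or day 32 replicate 2 and 2 without day 24 replicate 3. The smooth muscle falls numbered 1 without day 32 replicate 1 or 2 and 2 without any day 24 array. The matrix falls ranged from 1 without day 24 replicate 2 or day 32 replicate 1 or 2 to 8 without day 32 replicate 3. Mfap4, a microfibril protein, fell by 0.77 ± 0.15 (adjusted p = 0.00297). Afp and Mfap4 kept their call. The eosinophil chemokine Ccl11 went from 5.97, 6.41 and 5.66 to 3.94, 3.79 and 4.01 (-2.10 ± 0.18, adjusted p = 5.17e-07), also keeping its call.

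Transcripts retained in the nucleus and splicing factors were among the rises, in a list chosen after the values were seen: 13 of 34 were higher and none lower, with a median of 0.36. Neat1, the noncoding RNA that builds paraspeckles, read 8.19, 7.68 and 7.63 on day 24 and 9.66, 9.97 and 9.41 on day 32 (1.85 ± 0.18, adjusted p = 1.81e-06) and kept its call, though a dimmer probe set of the gene went from 4.85 to 4.63. Bclaf1 read 6.40, 6.65 and 5.86 against 7.57, 7.74 and 7.45 (1.29 ± 0.19), and the splicing factor Srsf5 9.54, 9.25 and 8.81 against 10.26, 10.51 and 10.30 (1.16 ± 0.21). Malat1, another nuclear RNA, read 6.28, 6.90 and 8.06 against 5.58, 5.97 and 6.60 and was not called (adjusted p = 0.159). The number of rises was 10 to 15 with any array left out and 6 with the 18S covariate. The 18S level and the 3′ minus 5′ differences given above moved with age on these arrays, and their part in these rises was not tested beyond that fit.

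Drug- and toxin-handling genes split, with 5 of 21 higher and 6 lower (median -0.04). The rises numbered 2 to 4 with any array left out, 2 of them without day 24 replicate 3 and 3 without any of the day 32 arrays, and with the 18S covariate 0 were higher and 2 lower. Cyp4b1 read 9.16, 7.99 and 8.13 on day 24 and 6.28, 6.41 and 6.87 on day 32 (-1.90 ± 0.23, adjusted p = 2.44e-05) and kept its call, whereas the carboxylesterase Ces1f went from 6.62, 5.94 and 7.20 to 7.77, 7.62 and 8.0 (1.21 ± 0.20, adjusted p = 0.000885). Nr1i2, the xenobiotic receptor PXR, rose by 0.62 ± 0.12. Rnase1, a secreted ribonuclease, fell from 7.60, 7.63 and 7.26 to 5.32, 5.55 and 5.44 (-2.06 ± 0.13, adjusted p = 1.50e-08), and Dnase1, a secreted nuclease that digests DNA, from 8.63, 8.38 and 8.37 to 6.11, 6.38 and 5.07 (-2.60 ± 0.22, adjusted p = 5.17e-07). Both kept their call, and both are also made by pancreas or other glands; of the 3 pancreatic acinar genes tested, Cela1 and Clps differed by 0.16 and -0.37 and were not called. Among intestinal transcription factors, Cdx2, which specifies intestine, read 8.96, 9.34 and 9.00 against 7.91, 8.40 and 8.43 (-0.85 ± 0.18, adjusted p = 0.00465), and Hnf4a read 11.03 to 11.20 and 11.00 to 11.33 and was not called.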

How the data were processed

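Expression was measured in full-thickness ileum of 18 mice, 3 at each of 6 ages, on short-oligonucleotide arrays. The deposited values are log2 levels, and the submitters' processing notes name RMA without a version; RMA brings all arrays to a common distribution, so a change shared by most transcripts cannot be seen, and levels near the array medians cannot be separated from background. Of 45101 probe sets 34945 had 1 gene symbol in the platform annotation; 932 with several and 9211 unlisted were not used. Each gene took its brightest probe set over the 18 arrays among those reaching log2 6 on at least 3; for 9 tested genes that was not the brightest before the filter. The test was limma 3.58.1 (lmFit, then eBayes; R 4.3.3) with age as a factor with 6 levels over all 18 arrays (12 residual degrees of freedom, median residual SD 0.176), Benjamini-Hochberg over 8630 genes, called below 0.05. The fit was tested on simulated data. The arrays' number limits the precision.

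The genes named were the 10 largest rises and 10 largest falls among called genes without overlap and with a brighter mean of at least 7, up to 4 called members of each of 53 gene lists with the largest differences, and 21 sentinel genes; further genes were named with their values in view. The comparison and the lists were chosen with earlier results of these data known, and 4 further lists after the values were seen. Lists are described by counts and medians, with no test of their own. Alternatives were other filters, probe-set averaging, normalizations, variance models, array weights, only the 6 arrays, Xist or 18S as covariates, each array left out and, added later, the beta-actin 3′ minus 5′ difference as a covariate.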

Additional observations from a re-analysis of the deposited data

How the results depend on the processing

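Of the 8630 genes, 527 were higher and 537 lower. With a filter at log2 8, where 3747 genes were tested, the numbers were 278 and 299. In a fit of only the 6 arrays they were 227 and 216, with the 18S level as a covariate 73 and 121, and with the beta-actin 3′ minus 5′ difference as a covariate, chosen after seeing the data, 280 and 394. The latter 2 covariates differ between the ages, so each takes up part of the age difference by construction; the cause beyond that was not tested. Leaving out each array in turn gave 288 to 569 higher and 283 to 593 lower genes. The other settings kept both counts within 1.5 times, but quantile normalization turned the split to 453 and 757, so that 37.4% of calls were higher, against 49.5% in the deposited scaling. Averaging the probe sets of a gene turned it to 613 and 479, or 56.1% higher, and kept 331 of the higher and 383 of the lower calls. The 18S covariate gave 37.6% and moved the median of all genes from -0.01 to -0.10. Of 134 named genes 125 were called; none of these changed sign under any setting tried, while 8 of the 9 that were not called did under at least 1. Of the 125, the call ended for 75 with the 18S covariate and for 39 with only the 6 arrays. No paired analysis was possible because the labels give no replicate number shared between the ages. With 3 mice per age, differences within the spread between mice could not be resolved.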

Other observations

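Several large changes lay outside the gene lists; these genes were chosen after their values were seen. Il33, an alarmin cytokine, read 6.79, 7.75 and 6.92 on day 24 and 5.86, 5.09 and 5.19 on day 32 (limma, -1.77 ± 0.21, SE, adjusted p = 2.48e-05). Ido1, the tryptophan-degrading enzyme, rose from 5.86, 5.40 and 5.62 to 7.87, 6.64 and 7.35 (1.66 ± 0.23, adjusted p = 0.000130), after a mean of 2.80 on day 11. Leap2, the antagonist of the ghrelin receptor, fell from 8.01, 6.55 and 7.24 to 4.65, 4.52 and 4.99 (-2.55 ± 0.26, adjusted p = 2.92e-06). The mice of the 2 ages did not overlap for any of these 3 genes.

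Some enzymes were highest on day 24. Cda, cytidine deaminase, had a mean of 4.83 on day 11 and read 8.65, 8.54 and 8.37 on day 24 and 6.41, 6.40 and 6.78 on day 32 (-1.99 ± 0.20, adjusted p = 3.58e-06). Adh6a, an alcohol dehydrogenase, likewise had a mean of 2.80 on day 11 and read 8.91, 9.31 and 8.82 and then 7.39, 7.30 and 6.90 (-1.82 ± 0.17, adjusted p = 1.37e-06). Slc25a48, a mitochondrial carrier, rose from 6.03, 6.49 and 6.62 to 8.38, 8.18 and 7.79 (1.74 ± 0.16, adjusted p = 1.26e-06).

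Probe sets of 1 gene disagreed in places. Those of Maf gave differences from -0.47 to 0.98, with 0.37 on the brightest, and those of the iron importer Slc11a2 from -0.22 to 0.72, the latter on the tested one. For Cat, catalase, the tested probe set fell by 0.58, a call that ended without day 24 replicate 1 (-0.41) or day 32 replicate 2 (-0.46), and the other probe set gave 0.01. Which transcripts these probe sets read was not analysed here.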
